A study of Mus musculus with 19 samples.

Results

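To investigate how mutant p53 in fibroblasts bears on gene expression in mammary tumors, 4 tumors from mice that carried mutant p53 in their fibroblasts (NP tumors, NP1 to NP4) were compared with 4 tumors from mice with wild-type p53 (N tumors, N1 to N4). These 8 RNA-seq libraries, 1 per tumor, were chosen by their labelled tissue and genotype from 19 in the series. The other 11 were mammary glands, of which 4 from N mice and 4 from NP mice are used below only to set gland values beside tumor values. The N tumors were labelled MMTV-neu;Fsp-Cre and the NP tumors MMTV-neu;p53wm-R172H/+;Fsp-Cre, so that all 8 carried both the neu oncogene and the Cre recombinase. In their labelled genotype the groups differed only in the conditional Trp53 allele. All mice were female and of a mixed FVB, C57 and BALB/c background. Tumors were taken at the endpoint, and ages are not given in the sources used here. The paper reported a shorter median tumor-free survival in NP mice, so that ages may differ between the groups.

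MMTV-neu places neu, the rodent form of the receptor tyrosine kinase HER2 (Erbb2), under a viral promoter that is active in mammary epithelium, and the mice develop luminal-type mammary carcinomas. The p53 protein is a transcription factor that restrains the cell cycle and promotes apoptosis, and R172H is the mouse counterpart of a common missense mutation of human tumors that impairs DNA binding. The conditional allele encodes wild-type p53 until Cre removes a cassette, after which the mutant protein is made. Fsp-Cre is driven by the promoter of S100a4 (FSP1), which is active in fibroblasts but not in them alone.

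Several features limit what the tumors can model. Whole tumors were sequenced, so that fewer cells of a type and less RNA per cell cannot be told apart. The values count wild-type and R172H Trp53 transcripts together. No N tumor carried the targeted allele. Recombination by Cre and the mere presence of that allele, with its chromosome 11 segment, therefore cannot be told apart in the tumors. Other loci of the mixed background may also differ between the groups, and their part was not tested. The library names of NP1 and NP2 share a number, and whether they came from the same mouse is not stated. Nothing in the labels says that the remaining tumors came from separate mice, and p-values then measure only the spread between these samples.

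The libraries held 20972633 to 27262440 reads, recovered from the deposited normalized counts, and 21911 to 23159 genes with at least 1 read. Markers of mammary epithelium differed widely in level. Epcam, an adhesion molecule of epithelium, stood at 26510 to 45960 normalized counts in the 8 tumors, and Krt18, a keratin of luminal cells, at 19910 to 64490. Other luminal markers were low, with Foxa1 at 1.14 to 121, Pgr at 1.17 to 514 and Esr1 at 107 to 854. Erbb2 stood at 73430 to 155000 normalized counts in the tumors and at 1845 to 14720 in the glands. How reads of the transgene were assigned to Erbb2 is not given in the sources used here. A normalized count is a read count divided by the library's size factor. Values of this kind compare a gene between tumors and do not correct for gene length, and are rounded to at most 4 digits.

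To see how the tumors differed as individuals, the 500 most variable genes were summarized by principal components. The first component held 43.9% of their variance and set N2 (62.2) and N4 (41.3) apart from the other 6 tumors, which lay between -29.3 (N1) and -7.5 (NP1). It did not separate the genotypes, since N1 (-29.3) and N3 (-16.4) lay among or beyond the 4 NP tumors. The second component, with 16% of the variance, spread the NP tumors, from NP1 at 33.9 and NP2 at 18.4 to NP3 at -21.4. Genes with the largest weights on the side of N1, N3 and the NP tumors were mostly genes of lactation, among them the caseins Csn1s1, Csn1s2a and Csn2, whey acidic protein (Wap), butyrophilin (Btn1a1) and Glycam1. On the side of N2 and N4 stood Fgg and Ahsg, which encode plasma proteins of the liver, Cubn, an endocytic receptor, the proteoglycan gene Gpc3 and the transcription factor genes Foxa3 and Mycn.

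**Figure D1:**
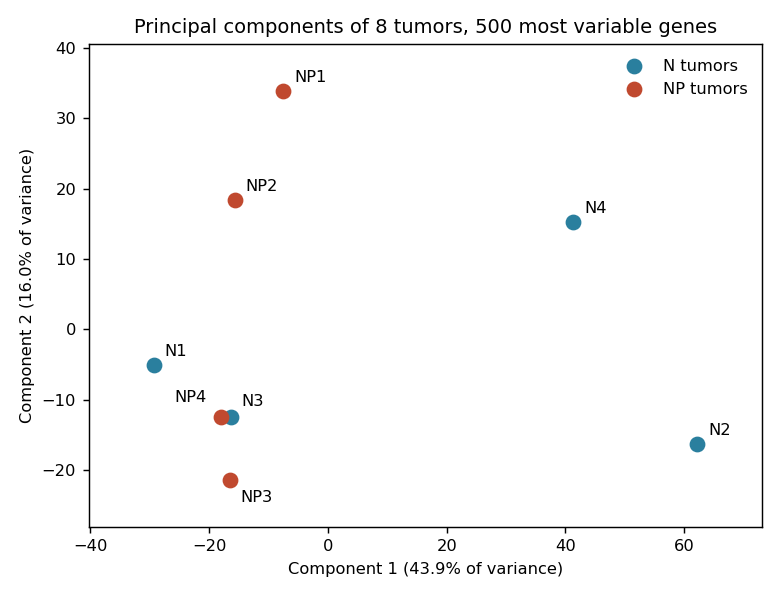
Principal components of the log2 values of the 500 most variable genes, one point per tumor (N tumors blue, NP tumors red), with component 1 (43.9% of variance) across and component 2 (16%) up. N2 and N4 lie far to the right, and N1 and N3 lie on the same side as the 4 NP tumors.

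The NP tumors resembled each other more than the N tumors did. Over 12234 genes with a mean of at least 100 normalized counts, Pearson correlations of log2 values ran from 0.917 to 0.974 within the 6 pairs of NP tumors, from 0.815 to 0.919 within the 6 pairs of N tumors, and from 0.856 to 0.942 in the 16 pairs across genotypes. These correlations are across genes and are given as a description. The number of genes that differed at least 2-fold had a median of 849 in a pair of NP tumors, 2011 in a pair of N tumors and 1448 in a pair across genotypes. N1 and N3 were each most like an NP tumor (NP2, at 0.942 and 0.921), whereas N2 and N4 were most like each other (0.919). NP1 and NP2, whose names share a number, were the most alike of all pairs (0.974), and NP3 and NP4 followed (0.955 as the best match of each).

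The spread of a single gene was also wider among the N tumors. The median SD of the log2 value was 0.354 in the N tumors (n = 4) and 0.217 in the NP tumors (n = 4), and 75.2% of the 12234 genes had the larger SD in the N tumors. With NP2 left out, in case it came from the mouse of NP1, this share was 73.7% and the NP median 0.221. With any 1 N tumor left out, the N median stayed between 0.316 and 0.36. An SD above 1, which is a spread of about 2-fold either way, was found for 1170 genes in the N tumors and 355 in the NP tumors.

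To identify genes that differed between the genotypes, a moderated linear model (limma) was fitted to log2(normalized count + 1) of 16638 genes, and genes with a Benjamini-Hochberg adjusted p below 0.05 and a difference of at least 2-fold were called. It called 7 genes (0.0421%), of which 6 rose (0.0361%) and 1 fell (0.00601%) in the NP tumors. An unadjusted p below 0.05 was reached by 1210 genes (7.27%). The 2 groups did not overlap in 701 genes (4.21%), with the NP tumors above in 439 (2.64%) and below in 262 (1.57%), and all 7 called genes were among these. The log2 difference of the typical gene was close to 0, with a median of -0.01 over all genes tested.

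The count of called genes depended on the tool and on single tumors. With NP1 and NP2, which may come from the same mouse, averaged as 1 sample, the linear model called 0 genes. With the recovered reads as input, DESeq2 made 85 calls (0.511%), of which 51 were higher (0.307%) and 34 lower (0.204%), and all 7 genes above were among them. The quasi-likelihood test of edgeR on the same reads called 0 (0%), with 1204 genes below an unadjusted p of 0.05 (7.24%), and it gave each of the 7 genes an adjusted p of 0.0638. Without N1 the linear model called 52 genes, which included all 7, whereas without any other single tumor it called 0. In the 138 values of these 7 genes under the other settings, the direction was the same in 138 and the call held in 37.

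The largest rise was in Rims2, which encodes a scaffold protein of the presynaptic active zone that takes part in exocytosis. It stood at 7.95, 2.11, 6.06 and 1.17 normalized counts in N1 to N4 and at 202, 81.7, 533 and 367 in NP1 to NP4. Every NP tumor lay above every N tumor, with a log2 fold change of 5.72 ± 0.67 (SE, n = 4 per group; adjusted p = 0.0434). Rims2 lies at chr15:39198261-39684372 (GRCm38, plus strand).

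The pseudogene Gm9522 lies upstream of Rims2 on the same strand (chr15:39180511-39181436), with 16.8 kb between its end and the annotated start of Rims2. It held 0 to 2 reads in each N tumor, at or below the floor of 3 reads, and 39.2, 48.8, 83.1 and 116 normalized counts in NP1 to NP4. Against that floor the NP mean was at least 21.9-fold higher (adjusted p = 0.0434 by limma). Gm9522 and Rims2 passed the filter on low values (at least 10 normalized counts in at least 4 tumors) through the NP tumors alone. Both were still called with no such filter. Nearby genes were not called and differed less. Fzd6, a Wnt receptor, stood at 1125 to 1765 normalized counts in the N tumors and at 1795 to 2115 in the NP tumors (log2 fold change 0.36 ± 0.16, SE), and Slc25a32, a mitochondrial folate carrier, at 312 to 364 and at 367 to 429 (0.25 ± 0.15), both without overlap. Dcaf13, a ribosome biogenesis factor, had a log2 fold change of 0.22 ± 0.15 with overlapping groups. Cthrc1, a secreted protein of matrix-producing cells, had -1.72 ± 0.68 with overlapping groups. As a processed pseudogene Gm9522 can share reads with its parent gene, so that its value is uncertain.

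Reep1, which encodes a protein that shapes the tubular endoplasmic reticulum, stood at 82.9, 51.6, 71.7 and 65.4 normalized counts in the N tumors and at 297, 567, 634 and 310 in the NP tumors (log2 fold change 2.65 ± 0.31, adjusted p = 0.0434). The lowest NP tumor was over the highest N tumor by more than the whole range of the N tumors. Krt17, a keratin of basal and stressed epithelium, stood at 40.9, 53.7, 40.4 and 79.4 in the N tumors and at 232, 329, 244 and 321 in the NP tumors (2.41 ± 0.28, adjusted p = 0.0434). The 4 NP values of Krt17 were close together and well clear of the N values.

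The remaining genes that rose were expressed at higher counts. Gm29562, a long non-coding RNA on chromosome 9, stood at 623, 1061, 752 and 784 normalized counts in the N tumors and at 2269, 2736, 4407 and 2833 in the NP tumors (log2 fold change 1.91 ± 0.23, adjusted p = 0.0474). Tmem229b, a transmembrane protein gene on chromosome 12, stood at 1280, 730, 1135 and 1018 in the N tumors and at 3065, 4575, 2951 and 4299 in the NP tumors (1.84 ± 0.22, adjusted p = 0.0434). Both were detected throughout and moved between the genotypes without overlap.

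The single gene that fell was Trim5, which encodes a cytoplasmic restriction factor of the tripartite motif family. It stood at 44.3, 56.9, 31.3 and 37.4 normalized counts in N1 to N4 and held 0 to 2 reads in each NP tumor. Against the floor of 3 reads the N mean was at least 11.6-fold higher (adjusted p = 0.0434 by limma). Trim5 passed the filter on low values (at least 10 normalized counts in at least 4 tumors) through the N tumors alone. With no such filter Trim5 was not called, so that its call depended on the filter. The groups were far apart, with the lowest N tumor at 31 reads.

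**Figure D2:**
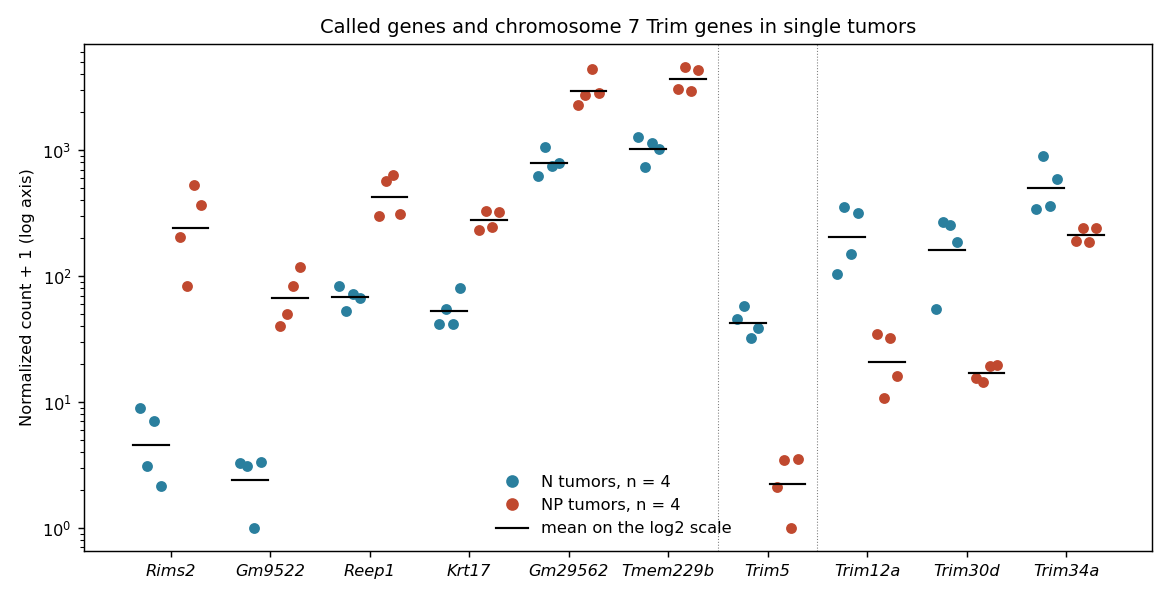
Normalized counts plus 1, on a log axis, of the 7 called genes and of 3 neighbours of Trim5 in single N tumors (blue) and NP tumors (red), with bars at the group mean on the log2 scale (n = 4). The 6 genes at the left sit higher in every NP tumor, and Trim5, Trim12a, Trim30d and Trim34a sit lower in every NP tumor.

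Trim5 belongs to a cluster of related Trim genes on chromosome 7, several of which are known as interferon-induced, and its neighbours were examined one by one. Trim12a lies on the same strand, with 11.8 kb between the genes. It stood at 102.3, 352, 147 and 316 normalized counts in the N tumors and at 33.6, 9.76, 31.2 and 15 in the NP tumors (log2 fold change -3.28 ± 0.53, SE). Trim30d stood at 53.4, 266, 253 and 186 in the N tumors and at 14.6, 13.4, 18.2 and 18.7 in the NP tumors (-3.24 ± 0.50). Neither overlapped between the groups, yet their adjusted p-values by limma were 0.234 and 0.211, and both were called lower by DESeq2. Trim34a, on the opposite strand, was lower in every NP tumor (187 to 241) than in every N tumor (342 to 899), with a log2 fold change of -1.24 ± 0.31 and an adjusted p of 0.589 by limma and 0.0203 by DESeq2.

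In other members of the cluster the groups overlapped or the gene was too low to be tested. Trim12c stood at 479 to 1156 normalized counts in the N tumors and at 543 to 623 in the NP tumors (log2 fold change -0.20 ± 0.26), with overlapping groups. Trim30a stood at 347, 2001, 876 and 1253 in the N tumors and at 506, 387, 368 and 340 in the NP tumors (-1.24 ± 0.47), where N1 lay among the NP tumors. Trim6 and Trim34b also overlapped between the groups, and Trim30b and Trim30c did not pass the filter on low values. In the glands Trim5, Trim12a and Trim30d overlapped between the genotypes. Trim5 stood at 10.2, 109, 5.63 and 200 in the N glands and at 196, 55.7, 248 and 76.2 in the NP glands, and the genotype difference in tumors was not shown to differ from that in glands (interaction adjusted p = 0.346 by limma).

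The stretches of 250 bases before the annotated starts are printed here for Trim5, Trim12a and Trim30d, which were lower in every NP tumor, and for Trim12c and Trim30a, which overlapped, because they show how alike the sequences before these genes are. They are RefSeq sequences of GRCm38.p6 in the direction of the gene, and capitals mark matches to GAAANNGAAA or its other strand TTTCNNTTTC, the core of the element that interferon-activated factors bind.
Trim5, chr7:104288107-104288356, minus strand: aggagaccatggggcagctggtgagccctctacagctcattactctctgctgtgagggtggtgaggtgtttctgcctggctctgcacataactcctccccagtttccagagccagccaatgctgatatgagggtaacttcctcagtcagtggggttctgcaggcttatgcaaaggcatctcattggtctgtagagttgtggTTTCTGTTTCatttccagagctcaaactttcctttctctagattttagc
Trim12a, chr7:104315496-104315745, minus strand: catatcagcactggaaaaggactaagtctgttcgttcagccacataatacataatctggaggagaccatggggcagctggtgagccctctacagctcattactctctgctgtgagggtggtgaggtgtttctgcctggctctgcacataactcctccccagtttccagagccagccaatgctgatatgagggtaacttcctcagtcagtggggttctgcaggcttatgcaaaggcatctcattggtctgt
Trim12c, chr7:104353350-104353599, minus strand: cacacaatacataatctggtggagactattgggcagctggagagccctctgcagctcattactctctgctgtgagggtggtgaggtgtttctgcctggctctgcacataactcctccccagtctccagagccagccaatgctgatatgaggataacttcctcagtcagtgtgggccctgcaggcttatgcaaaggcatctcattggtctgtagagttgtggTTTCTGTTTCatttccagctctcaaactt
Trim30d, chr7:104507850-104508099, minus strand: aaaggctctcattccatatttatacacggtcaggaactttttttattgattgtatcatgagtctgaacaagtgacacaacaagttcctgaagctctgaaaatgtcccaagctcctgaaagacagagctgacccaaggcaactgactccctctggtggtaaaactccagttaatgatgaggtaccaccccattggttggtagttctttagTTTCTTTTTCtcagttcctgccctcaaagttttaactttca
Trim30a, chr7:104465194-104465443, minus strand: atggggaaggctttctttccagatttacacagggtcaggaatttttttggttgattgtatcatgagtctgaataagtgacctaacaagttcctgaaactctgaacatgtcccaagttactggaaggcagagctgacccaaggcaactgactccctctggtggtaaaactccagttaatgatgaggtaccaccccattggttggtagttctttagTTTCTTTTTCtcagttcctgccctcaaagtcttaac
The match ended 40 bases before the start of Trim5, 20 before that of Trim12c, 32 before that of Trim30d and 27 before that of Trim30a. No match lay in the Trim12a window. That window ends at bases that lie shortly before the match in Trim5 and Trim12c. Bases past its end were not searched, so that the element cannot be called absent from Trim12a. Of all 32851 windows of this length 978 held the motif (2.98%), and of the 14461 windows of genes tested here 394 did (2.72%). Trim5 and Trim12a shared an unbroken run of identical bases over 76.4% of the window, offset against each other, and Trim30d and Trim30a one over 47.2%. The motif was present both before genes whose groups did not overlap (Trim5, Trim30d) and before genes whose groups did (Trim12c, Trim30a). It was absent before Trim34a, which was lower in every NP tumor, before Trim6 and Trim34b, which overlapped, and before a second annotated start of Trim30a. Since these genes are close copies, reads can be split among them in counting, and the values of single members are uncertain.

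Genes that came next but were not called by the linear model are given as values. Tubb2b, a neuronal-type beta-tubulin, stood at 179 to 405 normalized counts in the N tumors and at 675 to 941 in the NP tumors (log2 fold change 1.63, adjusted p = 0.211). Adamts8, a secreted protease, stood at 176 ± 44 in the N tumors and 557 ± 132 in the NP tumors (mean ± SD, n = 4; log2 fold change 1.67, adjusted p = 0.234). Sult2b1, a sulfotransferase of cholesterol and other sterols, stood at 21 to 40 and at 67.1 to 135 (1.84, adjusted p = 0.363). Rhou, a small GTPase gene, stood at 2592, 2303, 2833 and 2259 in the N tumors and at 4912, 5382, 5016 and 4452 in the NP tumors. Every NP tumor lay above every N tumor, but the log2 fold change of 0.99 ± 0.12 was just short of 2-fold and the adjusted p was 0.0517.

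On the lower side, Gm4951, which encodes an immunity-related GTPase, stood at 449 to 755 normalized counts in the N tumors and at 148 to 279 in the NP tumors (log2 fold change -1.50, adjusted p = 0.265). Zfp608, a zinc finger gene, stood at 583 to 1250 and at 213 to 518 (-1.50, adjusted p = 0.51). Tenm3, a teneurin that guides neuronal connections, stood at 88.6 to 582 and at 22.4 to 71.2 (-2.72). Cntnap1, Lhfp and C130075A20Rik were likewise lower in every NP tumor than in every N tumor, with log2 fold changes of -1.27, -1.03 and -1.71. DESeq2 called these genes together with Gm4951, Zfp608 and Tenm3.

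The DESeq2 calls included genes with a wide spread between single tumors. Groups did not overlap in 68 of the 85 genes, and the larger SD was in the N tumors for 30 of the 34 lower calls and 30 of the 51 higher calls, beside 72.4% of all genes tested. Col14a1, a fibril-associated collagen, is an example: it stood at 1429, 5773, 7392 and 7789 normalized counts in the N tumors and at 1072, 1036, 1642 and 1127 in the NP tumors, so that N1 was close to the NP tumors. Hoxa5 stood at 21.6, 386, 69.7 and 340 in the N tumors and at 7.85, 17.1, 46.8 and 7.49 in the NP tumors, with N2 and N4 high. Slc38a1, a glutamine transporter, was higher in the NP tumors with no overlap, at 2034, 715, 852 and 690 in the N tumors and 3537, 2345, 5331 and 3665 in the NP tumors. Col14a1, Hoxa5 and Slc38a1 were chosen here after their values were seen.

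Because each NP tumor carried the targeted Trp53 allele on chromosome 11, the position of the called genes was examined. Of the 7 genes, 0 lay within 20 Mb of Trp53 on either side, a window that held 3.47% of the genes tested. Of the 85 DESeq2 calls, 4 lay there (4.71%): Camkk1, Doc2b, Rasd1 and Fat2. Krt17 is on chromosome 11 as well, 30.7 Mb from Trp53.

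Whole chromosomes differed between single tumors. For each tumor, the log2 difference of each of the 12234 genes from its mean over the 8 tumors was taken, and its median was computed for each chromosome. The median over genes was at least 0.2 from 0 in 19 of 160 chromosome values, 11 in N tumors and 8 in NP tumors, whereas a typical value was 0.04 from 0. In the 8 glands, treated in the same way, chromosome medians ran from -0.08 to 0.14. Chromosome 4 stood at 0.37 in N1 and at -0.50, -0.20 and -0.43 in N2, N3 and N4, against 0.12 to 0.34 in the NP tumors. Chromosome 9 stood at -0.58 in N2 and at 0.04 to 0.13 in the other 7 tumors. Chromosome 19 stood at 0.21, -0.05, -0.57 and -0.23 in NP1 to NP4 and at 0.13 to 0.20 in the N tumors.

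On chromosomes 3, 4, 7 and 9, among others, shifts ran along the whole length or nearly so. Chromosome 7, which holds the Trim cluster, stood at 0.46 in N1, with 0 of 15 windows of 10 Mb below 0. It stood at -0.34 in N4, with 14 of 15 windows below 0, and at -0.05 to 0.00 in the other tumors. Chromosome 3 stood at 0.45 in N2 and 0.31 in N3, with 0 of 16 windows below 0 in each, and at -0.16 to -0.09 in the other tumors. Of 15 windows of 10 Mb on chromosome 4, 15 lay below 0 in each of N2, N3 and N4, and of 13 windows on chromosome 9, 13 lay below 0 in N2. Chromosome 12, which holds Tmem229b, was the single 1 of 20 chromosomes on which the genotypes did not overlap, beside 4.21% of all genes tested. It stood at -0.17 to -0.01 in the N tumors and at 0.00 to 0.32 in the NP tumors. The separation was narrow, with N2 at -0.01 next to NP1 at 0.00. With no fold threshold DESeq2 called 120 genes (0.721%), and chromosome 12, with 3.34% of the genes tested, held 16 of the 80 higher calls and 0 of the 40 lower ones. Chromosome 4, with 6% of the genes tested, held 12 of the higher calls. In NP1 to NP4 the chromosome 12 median was 0.00, 0.01, 0.32 and 0.17, and Tmem229b stood at 3065, 4575, 2951 and 4299 normalized counts. DNA copy number was not measured, and its part in these values was not tested.

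**Figure D3:**
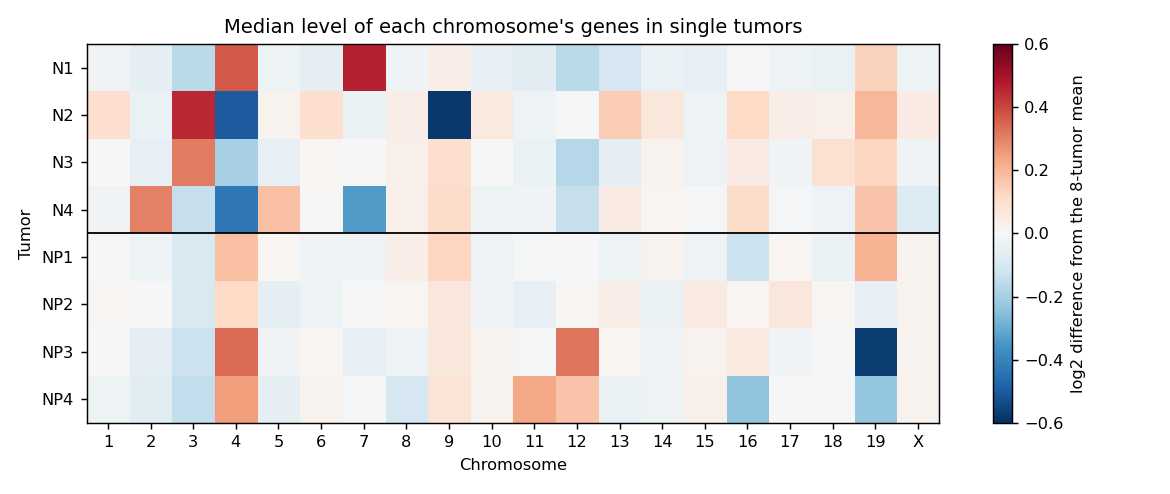
Median log2 difference of each chromosome's genes from the mean of the 8 tumors, with chromosomes across and tumors down, red higher and blue lower. N2 is low on chromosomes 4 and 9 (-0.50 and -0.58), and NP3 is low on chromosome 19 (-0.57). Chromosome 12 is raised in NP3 (0.32) and NP4 (0.17), whereas NP1 (0.00) and NP2 (0.01) lie close to N2 (-0.01).

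The genes of the mouse model were compared next. Trp53 stood at 708, 1554, 900 and 1083 normalized counts in the N tumors and at 567, 640, 688 and 896 in the NP tumors. The NP tumors were lower on average but N1 lay among them (log2 fold change -0.56 ± 0.25, adjusted p = 0.686 by limma, exact permutation p = 0.0571). Erbb2 stood at 81840, 73430, 155000 and 102600 in the N tumors and at 115500, 117600, 108700 and 84390 in the NP tumors (0.10 ± 0.30, adjusted p = 0.953). The NP values of Erbb2 lay within the range of the N values. S100a4, whose promoter drives the Cre, was near the floor in both groups, at 0 to 16.2 and 2.24 to 8.74 normalized counts, and did not pass the filter on low values.

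A list of 15 genes of secreted proteins, which had been drawn up from gland samples of this series, was then looked at in the tumors. Of 14 genes matched by symbol, 11 passed the filter, and 5 were higher and 6 lower in the NP tumors. By limma or DESeq2 0 were called, beside 0.0421% and 0.511% of all genes tested. With shares this low, 0 calls in a short list does not show that its genes were unchanged. Saa1, an acute-phase protein, stood at 223, 1.05, 12.1 and 0 normalized counts in the N tumors and at 238, 73.2, 15.6 and 11.2 in the NP tumors (log2 fold change 2.31 ± 1.67, adjusted p = 0.774). N1 was nearly as high as NP1, whereas N2 and N4 were at or near 0. Saa2 followed the same order except that N4 lay above N2, at 107, 1.05, 14.1 and 3.5 in the N tumors and 240, 35.4, 22.1 and 8.74 in the NP tumors (1.76 ± 1.33, adjusted p = 0.786). With N2 and N4 left out, both differences turned, to -0.32 for Saa1 and -0.11 for Saa2.

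Other genes of that list overlapped between the groups. Thbs4, a matrix thrombospondin, stood at 572, 170, 1836 and 231 in the N tumors and at 258, 200, 543 and 584 in the NP tumors (log2 fold change -0.33 ± 0.72, adjusted p = 0.923). Fndc5, the precursor of irisin, stood at 339 to 571 in the N tumors and at 581, 465, 122 and 593 in the NP tumors. Anxa2, Lama4 and Npc2, an annexin, a laminin chain and a lysosomal cholesterol carrier, each stood at 4178 normalized counts or more in every tumor and had log2 fold changes of 0.08, -0.37 and -0.03. Alb, Art5 and Dhrs7c were too low to be tested.

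Set beside the glands, which share no sample with the tumors, the same genes had other values. Saa1 stood at 2.30 to 5.15 normalized counts in the 4 N glands and at 55.3, 21.4, 202 and 9.04 in the 4 NP glands. Thbs4 stood at 40.2 to 63.7 in the N glands and at 118, 343, 40.1 and 697 in the NP glands. Of the N glands, 1 carried MMTV-neu;Fsp-Cre and 3 carried MMTV-neu;p53wm-R172H/+ without Cre, so that the gland groups differ in another way than the tumor groups. The linear model called 0 of 18563 genes between the NP and N glands (0%), with 1950 below an unadjusted p of 0.05 (10.5%). It was the only test run here on the glands alone. The paper used DESeq2 and reported genes that differed between these gland groups, with Saa1, Saa2 and Thbs4 higher in the NP glands. Because the linear model called 0 genes in the glands, the lack of a call there does not set the 7 genes called in the tumors apart. Their gland log2 fold changes were 1.92 for Reep1, 1.76 for Trim5, 0.55 for Rims2 and 0.09 for Gm9522. For Tmem229b, Gm29562 and Krt17 they were 0.01, -0.27 and -0.35. Rims2 was at 29.3 to 126 in the N glands and at 72.8 to 137 in the NP glands, so that the N tumors lay below all 8 glands.

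**Figure D4:**
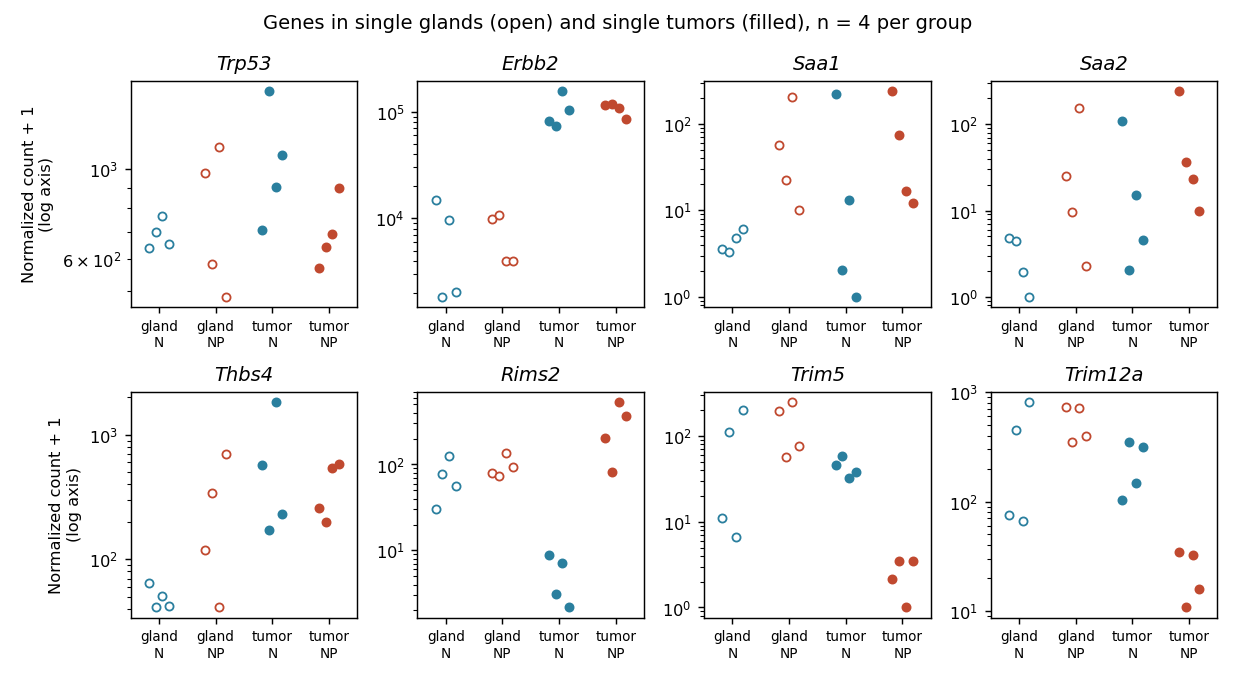
Normalized counts plus 1, on log axes, of 8 genes in single glands (open circles) and single tumors (filled circles) of N (blue) and NP (red) mice, 4 per group. Saa1 and Saa2 overlap between the tumor groups, Rims2 is below all glands in the N tumors, and Trim5 and Trim12a are below all glands in the NP tumors.

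Whether the genotype difference itself differed between tumor and gland was tested by an interaction term over 16 samples. The linear model called 0 of 19367 genes (0%), with a lowest adjusted p of 0.273 and 1536 genes below an unadjusted p of 0.05 (7.93%). On the recovered reads edgeR called 0 (1805 below an unadjusted p of 0.05, 9.32%) and DESeq2 called 356 (1.84%), 80 with the higher difference in tumors and 276 with the lower. Without N1 the linear model called 23 genes, without NP gland 3 it called 195, and without NP gland 4 it called 2. The genes of this comparison had adjusted interaction p-values of 0.273 for Rims2, 0.274 for Gm9522 and 0.346 for Trim5. Ache, which encodes acetylcholinesterase, stood at 18.2 to 30.6 in the N tumors and 6.24 to 34.8 in the NP tumors, and at 30.1 to 65.5 in the N glands and 124 to 307 in the NP glands (interaction adjusted p = 0.346).

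To describe the cell types of the tumors, the mean log2 level of marker lists was taken in each tumor. Of the tissue lists, 1 held a gene called by limma: Krt17, among 11 genes of basal and myoepithelium. Over all genes tested 0.0421% were called. In that list 9 genes were higher in the NP tumors, with a median log2 fold change of 0.68 beside -0.01 over all genes tested. Krt14, the partner of the basal keratin Krt5, stood at 12.5, 6.32, 45.4 and 8.17 in the N tumors and at 21.3, 30.5, 41.6 and 53.7 in the NP tumors, and Trp63, the transcription factor of basal cells, at 81.8, 28.4, 108 and 75.9 and at 63.9, 69.5, 242 and 316. N3 lay among the NP tumors in both, as did N1 and N4 in Trp63. With N2 and N4 left out, the list median was -0.07. Without N3 all 11 genes were higher and the median was 1.26, and by DESeq2 7 were higher and the median was 0.36.

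The milk protein genes set N2 and N4 apart most. Their mean log2 level was 12.96 in N1 and 13.51 in N3, 6.18 in N2 and 8.41 in N4, and 11.50 to 13.35 in the NP tumors. Csn1s1, the alpha casein, stood at 186900, 144, 301400 and 4120 normalized counts in the N tumors and at 121900, 116500, 176900 and 60200 in the NP tumors. Wap was listed at 604, 0, 314 and 2.33 in the N tumors and at 66.2 to 793 in the NP tumors. All 10 genes had a log2 fold change above 0, with a median of 2.35. By limma 0 were called, beside 0.0421% of all genes tested. With N2 and N4 left out, 9 of 10 were below 0 and the median was -0.85. Without N3 the median was 4.0, and by DESeq2, which compares means of counts, it was 0.13, with 6 genes above 0 and 4 below.

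Genes of the tumor stroma and of other tissues followed N3. The fibroblast list had a mean log2 level of 11.98 in N3, of 9.36 to 10.31 in the other N tumors and of 9.68 to 10.43 in the NP tumors. Col1a1, a chain of type I collagen, stood at 69620 normalized counts in N3, at 7676 to 11070 in the other N tumors and at 6361 to 15270 in the NP tumors. Of its 15 tested genes 14 were lower in the NP tumors (median -0.31), and without N3 5 were lower and the median was 0.08. By DESeq2 14 were lower and the median was -0.87. With N2 and N4 left out all 15 were lower (median -1.38), and with NP1 and NP2 left out 11 were (-0.26). N3 also held the highest levels of the lists of skeletal muscle (11) and of B and plasma cells (10.46), with Myh4, a fast muscle myosin, at 7402 and Ighm, an immunoglobulin heavy chain, at 7738 normalized counts. The macrophage list stood at 9.73 to 10.87 in the N tumors and 9.98 to 10.48 in the NP tumors, and its 12 genes were split evenly (6 higher, 6 lower).

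The neutrophil list was low throughout. Of its 7 genes 4 were tested and all 4 had log2 fold changes below 0 (median -0.53). Its defining marker Ly6g was at 0 in 7 of the 8 tumors. With N2 and N4 left out the median was 0.01, with NP1 and NP2 left out -0.31, without N3 -0.57 and by DESeq2 -0.59.

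**Figure D5:**
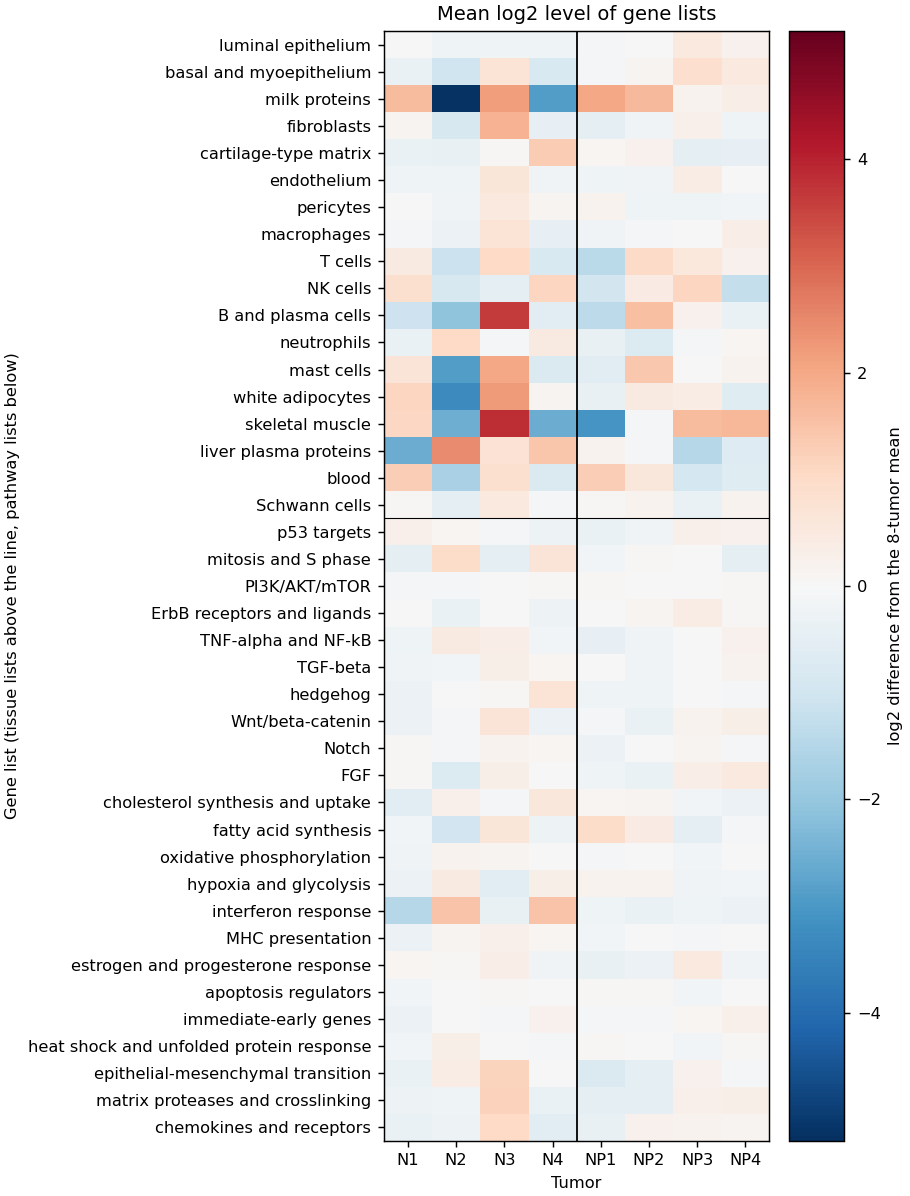
Mean log2 level of each tissue list (above the line) and pathway list (below it) in single tumors, as the difference from the mean of the 8 tumors. Milk proteins are low in N2 and N4, interferon response genes are high in N2 and N4 and low in N1, and the PI3K/AKT/mTOR list is nearly even in all 8 tumors.

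Among the pathway lists the linear model called 0 genes and DESeq2 called 1, beside 0.0421% and 0.511% of all genes tested. The gene called by DESeq2 was Tgfbr3, a coreceptor of TGF-beta. It stood at 1128, 2726, 3177 and 3591 normalized counts in the N tumors and at 1127, 1103, 968 and 1322 in the NP tumors (log2 fold change -1.12 ± 0.33, adjusted p = 0.618 by limma and 0.0479 by DESeq2). N1 was at the level of the NP tumors. The 27 p53 target genes were split between 14 higher and 13 lower, with a median log2 fold change of 0.01. Cdkn1a, the cell cycle inhibitor p21, stood at 1517, 2109, 546 and 989 in the N tumors and at 557, 808, 1196 and 1291 in the NP tumors, and Mdm2, the ligase that degrades p53, at 1620 to 2162 and at 1514 to 1880. Neither separated the genotypes. Btg2, an antiproliferative gene, was higher in every NP tumor (1085 to 1404) than in every N tumor (455 to 928), with a log2 fold change of 0.71 ± 0.24 and an adjusted p of 0.669.

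The interferon response genes were high in N2 and N4. Their mean log2 level was 8.21 in N1, 11.17 in N2, 9.33 in N3 and 11.21 in N4, and within 9.36 to 9.5 in the NP tumors. All 20 genes had a log2 fold change below 0 (median -0.55). By limma or DESeq2 0 were called, beside 0.0421% and 0.511% of all genes tested. Isg15, a ubiquitin-like modifier, stood at 73.8, 1198, 195 and 1042 in the N tumors and at 164, 235, 256 and 285 in the NP tumors. With N2 and N4 left out, 18 of the 20 genes were above 0 and the median was 0.81. By DESeq2 all 20 were below 0 and the median was -1.09.

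Genes of mitosis and S phase showed the same tumors apart. Their mean log2 level was 11.46 in N2 and 11.16 in N4, against 10.03 in N1, 10 in N3 and 9.99 to 10.56 in the NP tumors. Top2a, which untangles DNA before division, stood at 5649, 18880, 4905 and 12020 in the N tumors and at 6708, 7430, 7698 and 5496 in the NP tumors. Of 25 genes 24 were lower in the NP tumors (median -0.29), whereas with N2 and N4 left out 22 were higher (median 0.35). Without N3 all 25 were lower (median -0.55), and by DESeq2 24 were lower (median -0.45).

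Receptor and signaling genes varied less. The 27 genes of the PI3K/AKT/mTOR pathway, which acts below HER2, had a mean log2 level of 10.96 to 11.13 in all 8 tumors and a median log2 fold change of -0.05. Among 13 tested ErbB receptors and ligands, Erbb4 differed most, at 2278, 86.4, 388 and 267 in the N tumors and 1366 to 2252 in the NP tumors (2.28 ± 0.82, adjusted p = 0.677), where N1 was at the level of the NP tumors. Fgfr3, a receptor of fibroblast growth factors, stood at 44.3, 1.05, 16.2 and 39.7 and at 72.9, 74.4, 64.9 and 301 (2.68 ± 0.98, adjusted p = 0.681). Hspb1, a small heat shock protein, was higher in every NP tumor (1909 to 2994) than in every N tumor (721 to 1682), with a log2 fold change of 1.03 ± 0.26 and an adjusted p of 0.589.

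The epithelial-mesenchymal transition list had 11 tested genes, all lower in the NP tumors (median -0.38). Without N3 6 were lower (median -0.09), and with NP1 and NP2 left out 7 were (-0.15). With N2 and N4 left out 10 were lower (median -0.73), and by DESeq2 10 were (-0.59). Fn1, fibronectin, stood at 5808, 102200, 30410 and 12940 in the N tumors and at 5731 to 10820 in the NP tumors. The list of matrix proteases and crosslinking enzymes had 14 of 19 genes lower (median -0.41). Without N3 10 were lower (median -0.06), and with NP1 and NP2 left out 8 were (0.07). With N2 and N4 left out 15 were lower (median -0.75), and by DESeq2 14 were (-0.55). Mmp2, a gelatinase, stood at 942, 478, 3482 and 1699 in the N tumors and at 496 to 837 in the NP tumors.

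Each tumor also held genes of its own. Atp2a3, a calcium pump of the endoplasmic reticulum, stood at 13060 normalized counts in N1 and at most at 307 in the other 7 tumors, and A2m, a plasma protease inhibitor, at 2093 in N1 and at most at 165. Gm10800, a predicted gene, stood at 18560 in N2 and at most at 126. Sftpd, surfactant protein D, stood at 6612 in N3 and at most at 401, and the imprinted RNA H19 at 1487 in N3 and at most at 139. Stk32b, a kinase gene, stood at 794 in N4 and at most at 26.8.

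Genes that stood out in single NP tumors were found by the same rule. Prss35, a protease-like gene, stood at 1327 in NP1 and at most at 107 elsewhere, and Ccl28, a mucosal chemokine, at 528 in NP2 and at most at 105. Krt19, a luminal keratin, stood at 1512 in NP3 and at most at 215, and Ptx3, a pattern recognition protein, at 1370 in NP4 and at most at 252. On the log2 scale, the gap above the next highest tumor was 3.41 to 7.19 for the genes named in the N tumors and 2.32 to 3.62 for those named in the NP tumors.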

How the data were processed

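Bulk RNA-seq of whole tumors and glands was deposited by the authors as 1 table that gives normalized counts of 46078 genes in 19 libraries (read counts divided by DESeq2 size factors, so the values are a scaled signal and not whole counts). RNA was prepared with TRIzol and RNeasy. The library kit is an mRNA kit in the methods but a stranded total RNA kit in the labels. Reads of 75-bp pairs were aligned to GRCm38 with TopHat2 (version 2.1.1 in the submitters' processing notes) and Bowtie2, and the counting tool, annotation and use of strand are not given in the sources used here. Reads were recovered from the deposited signal by dividing each value by the value of 1 read in its library, and all values came out whole within 0.05 of a read.

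Genes with at least 10 normalized counts in at least 4 of the 8 tumors were kept (16638 genes). The main test was limma 3.58.1 (R 4.3.3; lmFit, eBayes with trend) on log2(normalized count + 1), which understates the change of low genes, with Benjamini-Hochberg adjustment over all genes tested. The edgeR 4.0.16 quasi-likelihood test and DESeq2 1.42.0 on recovered reads, other pseudocounts (0.5 and 5), other filters, TMM scaling, a fit of all 5 groups, a replicate block and leaving out tumors were alternatives. Leaving out N2 with N4, or NP1 with NP2, was chosen after seeing the data. Scripts were tested on simulated data. Single genes were tested by a two-sided exact permutation test, and depth intervals cover counting error only.

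Groups were taken from the labels. Replicate numbers did not pair the tumors: same-numbered N and NP tumors had correlations of deviations of -0.06, -0.06, -0.06 and -0.14. Identifiers were matched to GENCODE vM21 on GRCm38 (45143 genes, 97.97%; 935 unmatched). Promoter entries came from RefSeq, with none for Rims2, Gm9522, Krt17 and Gm29562. The single genes given are the model and secreted-protein genes, the 10 largest rises and falls among called genes that did not overlap (free places filled by smallest p, at least 2-fold and a mean of at least 100 in the higher group), up to 4 genes of a list, and genes far apart in 1 tumor. Further genes were chosen after their values were seen: Rhou, neighbours of Trim5 and Rims2, members of lists named as examples and the examples of DESeq2 calls. Single-gene results of some list members and of some genes met by these rules are not reported here. The gene lists and the comparison were chosen with earlier results of these data known. Python 3.11.15, numpy 2.4.6, pandas 2.3.3, scipy 1.17.1 and matplotlib 3.10.9 were used.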

Additional observations from a re-analysis of the deposited data

Results flagged for a closer look

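In 16 of 198 groups of 4 tumors (8.1%), the highest or lowest value lay apart from the other 3, by Dixon's test at the 95% level. Chance flags about 1 in 20 groups. Among the N tumors, N3 stood high in the endothelium list (mean log2 level 9.14) and in the list of matrix proteases and crosslinking enzymes (9.66), and N1 in the luminal epithelium list (11.43). Chromosome medians set N2 apart on chromosome 1 (0.10) and chromosome 9 (-0.58), N4 on chromosome 2 (0.30), and the lowest N tumor on chromosome 8 (-0.02). The lowest N value was 0 normalized counts for Gm9522, in N3, and 110 for Adamts8, in N2.

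Among the NP tumors, NP3 stood low in the list of apoptosis regulators (10.13) and NP1 in the list of chemokines and receptors (7.16). The chromosome 9 median was highest in NP1 (0.13) and the chromosome 11 median in NP4 (0.23). The highest NP value of Ache was 34.8 normalized counts, in NP1. The lowest NP value of Fndc5 was 122, in NP3, and that of Sult2b1 was 67.1, in NP2. The causes of these values were not tested.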

How the results depend on the processing

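The 7 called genes became 0 with a pseudocount of 0.5, with a mean of at least 50 normalized counts, by edgeR, with NP1 and NP2 averaged, with N2 and N4 left out and with NP1 and NP2 left out. A fit of all 5 groups called 26 genes, of which 3 were among the 7, and DESeq2 called 85, which included all 7. With no filter on low values 6 genes were called, all of them higher, and Trim5 was not among them. Without single tumors the count ran from 0 to 52, the latter without N1. With the replicate number as a block 0 genes were called. For the interaction, DESeq2 called 356 genes in place of 0, and without single samples the count ran from 0 to 195; the block left it at 0. Within 40 Mb of Trp53 lay 1 called gene in place of 0. The first component held 37.1% of the variance over all genes in place of 43.9%. The cause of these changes was not tested.

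Of 695 values of 35 single genes under the alternatives, 17 changed sign. With N2 and N4 left out, log2 fold changes were 0.01 for Lama4, 0.25 for Npc2, -0.10 for Fgf13, -0.32 for Saa1, -0.11 for Saa2 and -0.09 for Erbb2. With NP1 and NP2 left out they were 0.32 for Thbs4 and -0.05 for Erbb2. Leaving out single tumors, the range was -0.10 (without N1) to 0.20 for Anxa2, -0.16 to 0.10 for Npc2 (above 0 without N2, at 0.02 without N4 and at 0.01 without NP3 or NP4), -0.52 to 0.24 (without NP3) for Fndc5, -0.80 to 0.34 (without N3) for Thbs4 and -0.05 (without N2) to 0.31 for Erbb2. Of 164 list medians, 21 moved by more than the spread between tumors. Depth bears on low genes: Trim5 in the NP tumors and Gm9522 in the N tumors held at most 2 reads each, and S100a4 could not be tested.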
